A study of Homo sapiens with 6 samples.

Results

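The MYC, MAX and MXD network is a group of related transcription factors, and 10 of its genes were followed here among the 58219 gene identifiers counted in each library. They were taken by name as MYC, MYCN, MYCL, MAX, MXD1, MXD3, MXD4, MXI1, MNT and MLX, and all 10 names matched an identifier. RNA was sequenced from SNU-387, an established human line from a pleomorphic hepatocellular carcinoma, and the design asks how its transcriptome differs once the SRC-family kinase YES1 is targeted by RNA interference. For this the cells express a hairpin-shaped RNA, which they cut into a short guide that silences matching transcripts. The shYES1 group (n = 3) stably expressed a hairpin against YES1, and the shNT group (n = 3) stably expressed a non-target hairpin, so cells of both groups carried a hairpin. The sources used here do not give the hairpin sequences, or say whether a line was 1 clone or a mixed population. The labels do not say whether the numbers 1 to 3 mark separate cultures or, in the shYES1 group, different hairpins. The p-values therefore reflect sample-to-sample spread alone, and that spread may be technical.

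Proteins of the network share a basic helix-loop-helix leucine zipper domain and bind DNA in pairs, preferably at the E-box CACGTG. MAX is the common partner: MYC, MYCN or MYCL paired with MAX recruit coactivators, while MXD1, MXI1, MXD3, MXD4 and MNT paired with MAX recruit SIN3 and histone deacetylases and repress the same kind of site. MLX is a second hub, which pairs with the glucose-sensing factors MLXIP and MLXIPL and also with MXD1, MXD4 and MNT. In liver and liver tumours MYC is known as a driver of growth and ribosome production, and the MXD genes are known mainly from cells that leave the cell cycle.

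YES1 itself was read first. It had 42.9, 43.3 and 46.0 CPM (reads normalised for library size and composition) in shYES1, against 177.7, 180.9 and 180.0 CPM in shNT. The groups were far apart, and the level was 4.06-fold lower in shYES1 (log2 fold change -2.02, SE 0.0371, edgeR adjusted p = 7.93e-40). Gene reads ran from 11290889 to 18944148 per library. Across genes, the correlation of log2 CPM was 0.994 to 0.996 within groups and 0.969 to 0.970 between them. Of 14239 genes tested, 65.3% were called at an adjusted p under 0.05, 32.5% higher and 32.8% lower in shYES1, so a call alone sets no gene apart in these data. The tissue label is liver, but 9 of 10 hepatocyte markers averaged below 1 CPM, and SERPINA1 carried nearly all of the summed level. The summed mesenchymal markers came to 18322 to 18447 CPM in shYES1 and 27100 to 29788 CPM in shNT. FN1 made up most of that sum, and of the 5 markers FN1, VIM and ZEB1 were called lower and CDH2 and COL1A1 higher. The summed epithelial markers came to 1070 to 1091 CPM in shYES1 and 764 to 774 CPM in shNT. KRT8 and KRT18 made up nearly all of that sum, with CDH1 and KRT19 at or near 0. Of the 5 epithelial markers 3 were tested, and 2 of these were called higher. The remaining tested marker, EPCAM, went the other way. It was lower in every shYES1 library than in any shNT library (log2 fold change -0.59), but it was not called. The part of all these markers in the results below was not tested. In bulk RNA fewer cells of a kind and less RNA per cell cannot be told apart.

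Of the 10 network genes, 8 passed the filter on low counts, and all 8 were called, 3 higher and 5 lower in shYES1. Over all tested genes 65.3% were called. The members were chosen with earlier results of these data known, so their share only describes them. MYC, MAX, MXD1, MXD3 and MXI1 fell, by 1.41-fold to 2.43-fold, and MXD4, MLX and MNT rose, by 1.10-fold to 1.604-fold. The libraries of the groups did not overlap for any of the 8, against 67.9% of all tested genes. The median log2 fold change of the 8 was -0.53, and that of all tested genes was -0.0047. The other 2 members, MYCN and MYCL, had too few reads to test.

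The promoters of the 3 genes that rose hold the E-box that the network's own proteins bind, and those stretches are shown for that reason. They were read from RefSeq promoter windows on GRCh38.p14, which run from 250 bases before to 50 bases after each gene's start, and the capitals mark CACGTG. The sequence reads the same on both strands.
MXD4: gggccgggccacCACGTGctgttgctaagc
MNT: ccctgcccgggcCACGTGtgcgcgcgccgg
MLX: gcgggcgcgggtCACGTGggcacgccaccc
The MXD4 stretch is chr4:2262330-2262359 on the minus strand, with the E-box at position -238 from the start. The MNT stretch is chr17:2401236-2401265 on the minus strand, with the E-box at position -193. The MLX stretch is chr17:42567038-42567067 on the plus strand, with the E-box at position -50. These positions count from the RefSeq start, which lies inside the GENCODE gene ranges given below. From the GENCODE starts they are -53 for MXD4, -135 for MNT and -18 for MLX.

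Windows were matched for 9 of the 10 members, all but MYC, and 3 of the 9 hold CACGTG. All 3 members with it rose, while the 4 tested members without it (MAX, MXD1, MXD3 and MXI1) fell. The rise of MNT was small (log2 fold change 0.14), and its call was lost in 5 of 17 other settings of processing. Across the genome 7.26% of the 35116 windows hold CACGTG, and among tested genes 12.4% do. The share was 12.4% of genes called higher, 12.03% of genes called lower and 12.7% of genes not called, and the median log2 fold change was 0.019 in genes with it and 0.013 in genes without it. A match describes the letters in the window and does not show that any factor binds there.

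The MYC genes come first, as the activating partners. MYC (ENSG00000136997, chromosome 8, 127735434 to 127741434 on GRCh38, plus strand, 3 exon blocks) was covered by 336 reads in the shYES1 libraries and 494 in the shNT libraries. Its level was 7.43, 6.67 and 6.95 CPM in shYES1, against 11.8, 10.6 and 13.2 CPM in shNT. All 3 shYES1 libraries were lower than any shNT library, and the spread was wider in shNT. The means were 7.02 ± 0.382 CPM in shYES1 and 11.9 ± 1.29 CPM in shNT (SD, n = 3 each), a 1.69-fold lower level (log2 fold change -0.76, SE 0.104, edgeR adjusted p = 1.32e-08). Of all tested genes, 10.4% had a lower log2 fold change than MYC. Protein was not measured.

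The paralogs of MYC were all but absent. MYCN, best known from neural tissue and neuroblastoma (chromosome 2, 15940564 to 15947007), had 0, 0 and 0 reads in shYES1 and 0, 1 and 1 in shNT. MYCL, first found in lung cancer (chromosome 1, 39895426 to 39902256), had 1, 3 and 5 reads in shYES1 and 2, 1 and 6 in shNT. A count of 0 allows up to 3 reads, which is 0.153 to 0.257 CPM in the shYES1 libraries and 0.190 to 0.242 CPM in the shNT libraries, counting error only. A difference in either gene was not detectable at this depth.

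MAX, the shared partner (ENSG00000125952, chromosome 14, 65006174 to 65102695, minus strand), had 37.6, 38.4 and 34.4 CPM in shYES1, against 56.2, 59.1 and 68.5 CPM in shNT. The groups were well separated, and shNT replicate 3 was the highest of all. The means were 36.8 ± 2.11 CPM in shYES1 and 61.3 ± 6.45 CPM in shNT, 1.69-fold lower in shYES1 (log2 fold change -0.75, SE 0.0603, edgeR adjusted p = 4.25e-12). MYC and MAX thus fell by nearly the same factor: per length, the MAX to MYC ratio was 3.56 ± 0.294 in shYES1 and 3.51 ± 0.277 in shNT, with overlapping libraries.

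**Figure D1:**
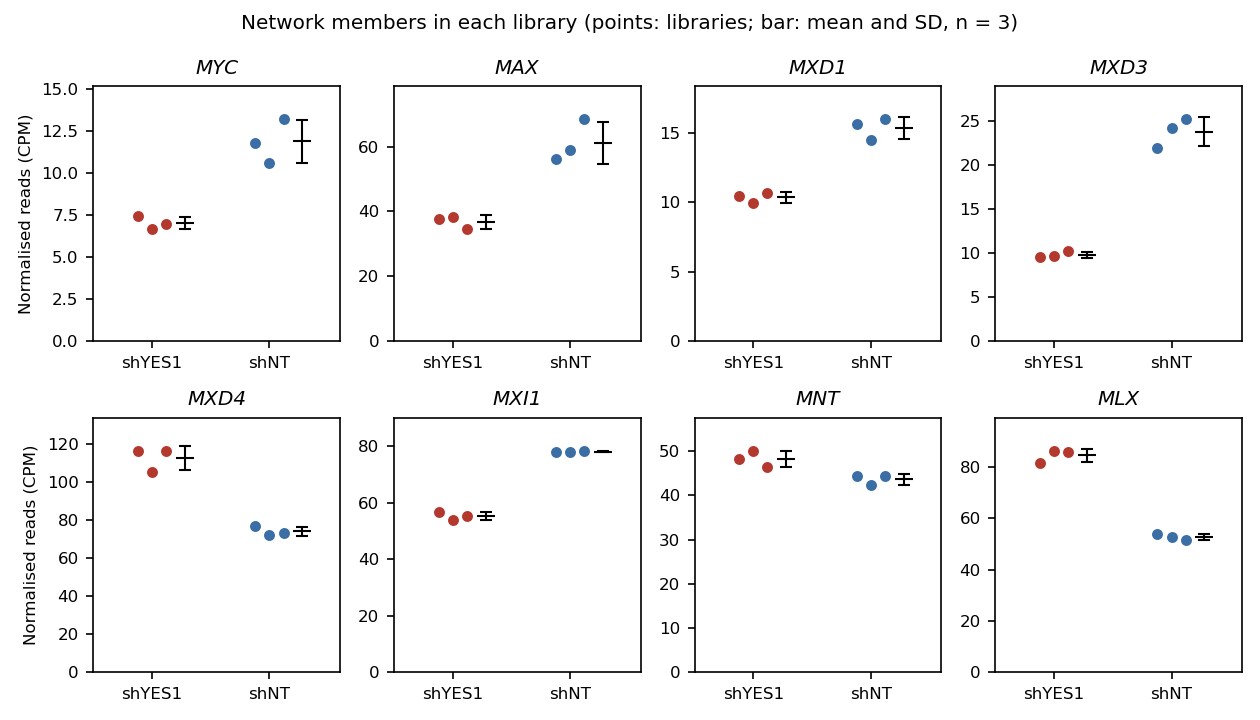
Normalised reads (CPM, axes from 0) of the 8 tested network members in each library, shYES1 left and shNT right, with points for libraries and bars for mean and SD (n = 3). MYC, MAX, MXD1, MXD3 and MXI1 lie lower in all shYES1 libraries, and MXD4, MNT and MLX lie higher.

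Among the repressing partners MXD3 fell furthest. MXD3, which in mouse embryos is known from dividing progenitors rather than from cells that have stopped (chromosome 5, 177301461 to 177312757, minus strand), had 9.56, 9.67 and 10.2 CPM in shYES1, against 22.0, 24.2 and 25.2 CPM in shNT. The shYES1 libraries lay close together, far below the shNT libraries. The fold was 2.43 lower in shYES1 (log2 fold change -1.28, SE 0.0800, edgeR adjusted p = 5.59e-19), and 3.68% of tested genes had a lower log2 fold change. Its exons share 926 bases with RAB24 on the same strand and 1158 bases with PRELID1 on the opposite strand, so its level is less certain than that of the others. In the deposited unstranded column, which held fewer reads for MXD3 than the reverse-strand column did, the log2 fold change was -1.34.

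MXI1 and MXD1 fell less. MXI1, also called MXD2, the member induced by hypoxia-inducible factors in several tumour lines (chromosome 10, 110207605 to 110287365, plus strand), had 56.8, 54.1 and 55.3 CPM in shYES1, against 77.9, 78.0 and 78.4 CPM in shNT. The shNT libraries lay unusually close together, and the level was 1.41-fold lower in shYES1 (log2 fold change -0.49, SE 0.0408, edgeR adjusted p = 7.54e-15). MXD1, the founding member, which rises in differentiating blood and skin cells (chromosome 2, 69897688 to 69942945, plus strand), had 10.5, 9.92 and 10.7 CPM in shYES1, against 15.6, 14.5 and 15.97 CPM in shNT. It was 1.48-fold lower in shYES1 with no overlap (log2 fold change -0.56, SE 0.0861, edgeR adjusted p = 1.79e-07), and 3.73% of its exon bases are shared with SNRNP27 on the same strand.

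MXD4 went the other way. MXD4, a repressor known from differentiating cells (ENSG00000123933, chromosome 4, 2247432 to 2262294, minus strand), had 116.2, 105.1 and 116.1 CPM in shYES1, against 76.8, 72.0 and 72.9 CPM in shNT. The lowest shYES1 library was above every shNT library. The means were 112.5 ± 6.37 CPM in shYES1 and 73.9 ± 2.503 CPM in shNT, 1.53-fold higher in shYES1 (log2 fold change 0.62, SE 0.0393, edgeR adjusted p = 1.11e-18). Of tested genes, 8.03% had a higher log2 fold change.

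MNT, the most widely expressed antagonist and one that binds both MAX and MLX (chromosome 17, 2384060 to 2401118, minus strand), changed least. It had 48.2, 50.04 and 46.4 CPM in shYES1, against 44.3, 42.2 and 44.4 CPM in shNT. The groups were close without touching, and the level was 1.10-fold higher in shYES1 (log2 fold change 0.14, SE 0.0488, edgeR adjusted p = 0.0130). The call was lost with DESeq2 (0.14, adjusted p = 0.0599), without shYES1 replicate 2 (0.12, adjusted p = 0.0567) and without shNT replicate 2 (0.11, adjusted p = 0.0721). It was also lost with scaling on CCTTTC-free genes, those whose 3′ UTR does not hold that sequence (0.047, adjusted p = 0.410) and in a test against a change of 1.2-fold (adjusted p = 1).

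MLX, the hub of the other arm (ENSG00000108788, chromosome 17, 42567068 to 42573239, plus strand), had 81.4, 86.3 and 85.7 CPM in shYES1, against 53.8, 52.8 and 51.4 CPM in shNT. It stood well above in all shYES1 libraries. The level was 1.604-fold higher in shYES1 (log2 fold change 0.68, SE 0.0416, edgeR adjusted p = 2.25e-19), and 6.42% of tested genes had a higher log2 fold change. MLX and MAX, the 2 common partners, thus moved in opposite directions.

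The 3 relatives outside the member list were read beside them. MLXIP, known as MondoA, a partner of MLX that senses glucose 6-phosphate, had 126.9, 122.8 and 125.7 CPM in shYES1, against 93.6, 83.8 and 86.6 CPM in shNT, and rose with MLX (log2 fold change 0.51, SE 0.0365, edgeR adjusted p = 5.50e-17). MLXIPL, known as ChREBP, the partner typical of hepatocytes, had 12 reads in all in shYES1 and 12 in shNT and was not tested. MGA, a MAX partner of the repressive PRC1.6 complex, had 49.0, 49.1 and 53.6 CPM in shYES1, against 53.3, 48.2 and 47.6 CPM in shNT. Its groups overlapped (log2 fold change 0.037, 95% interval -0.061 to 0.13, edgeR adjusted p = 0.532). With library-size scaling MGA passed the threshold (adjusted p = 0.0174), and without shYES1 replicate 3 its sign turned (-0.0139).

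**Figure D2:**
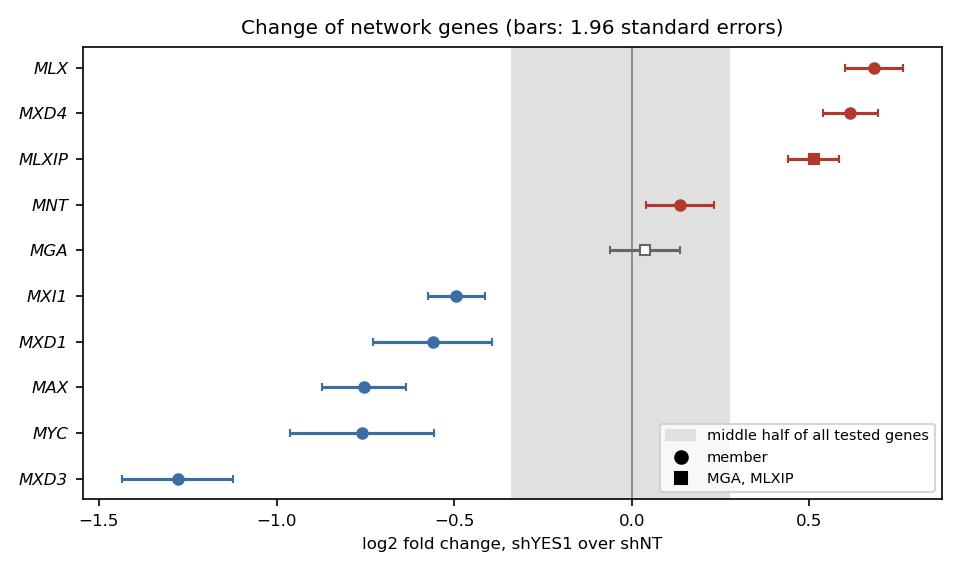
Log2 fold change (shYES1 over shNT) of the 8 tested members (circles) and of MLXIP and MGA (squares), with bars of 95% intervals, red for higher, blue for lower and an open symbol for not called. The grey band holds the middle 50% of all tested genes, from -0.34 to 0.28, and of the genes shown MNT and MGA lie within it.

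Levels of different genes were compared per length, as CPM divided by the kilobases of exon (RPKM), taking all annotated exon bases of a gene as its length. The order in shYES1 was MLX at 19.8, MXD4 at 15.9, MXI1 at 12.02, MAX at 8.31, MNT at 5.52, MYC at 2.34, MXD3 at 1.90 and MXD1 at 1.63 RPKM, and no neighbours in that order overlapped between libraries. The order in shNT was MXI1 at 17.0, MAX at 13.8, MLX at 12.4, MXD4 at 10.5, MNT at 4.998, MXD3 at 4.62, MYC at 3.95 and MXD1 at 2.42 RPKM. There MNT overlapped MXD3 and MXD3 overlapped MYC, and the lowest MAX library, at 12.68 RPKM, was within 0.1 RPKM of the highest MLX library, at 12.63 RPKM. MXI1 led in shNT and was the third in shYES1, where MLX and MXD4 stood above it. The order depended in part on the length used. With the longest transcript MXD3 stood above MYC in shYES1 (4.31 and 2.97 RPKM). In shNT it then stood above MNT (10.4 and 8.73 RPKM), and MLX above MAX (20.4 and 19.4 RPKM). The places of MXI1 named above were the same with either length.

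The repressing partners were then added up in each library, as a description with no test. MXD1, MXD3, MXD4, MXI1 and MNT came to 37.0 ± 1.07 RPKM in shYES1 and 39.5 ± 0.458 RPKM in shNT. The sum was slightly lower in every shYES1 library than in any shNT library, while its make-up shifted more. MXD4 was 43.0 ± 1.25% of it in shYES1 and 26.5 ± 0.828% in shNT. MXI1 was 32.5 ± 0.375% in shYES1 and 43.0 ± 0.433% in shNT. The 2 largest contributors had changed places: the MXD4 to MXI1 ratio was 1.33 ± 0.0517 in shYES1 and 0.618 ± 0.0223 in shNT. The share of MXD3 was 5.15% in shYES1 and 11.7% in shNT. MNT made up 14.9% in shYES1 and 12.7% in shNT, and MXD1 4.40% in shYES1 and 6.12% in shNT.

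MYC was low against this sum in both groups. The summed repressing partners stood at 15.3, 16.1 and 16.2 times MYC in shYES1, against 10.1, 11.03 and 9.07 times MYC in shNT, with no overlap. These multiples depend on the length used: with the longest transcript they averaged 19.7 in shYES1 and 12.4 in shNT. The log2 ratio of MYC to the sum was lower in shYES1 (difference -0.66), and it stayed between -0.73 and -0.59 with other transcript lengths, with the unstranded column or without any 1 library.

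**Figure D3:**
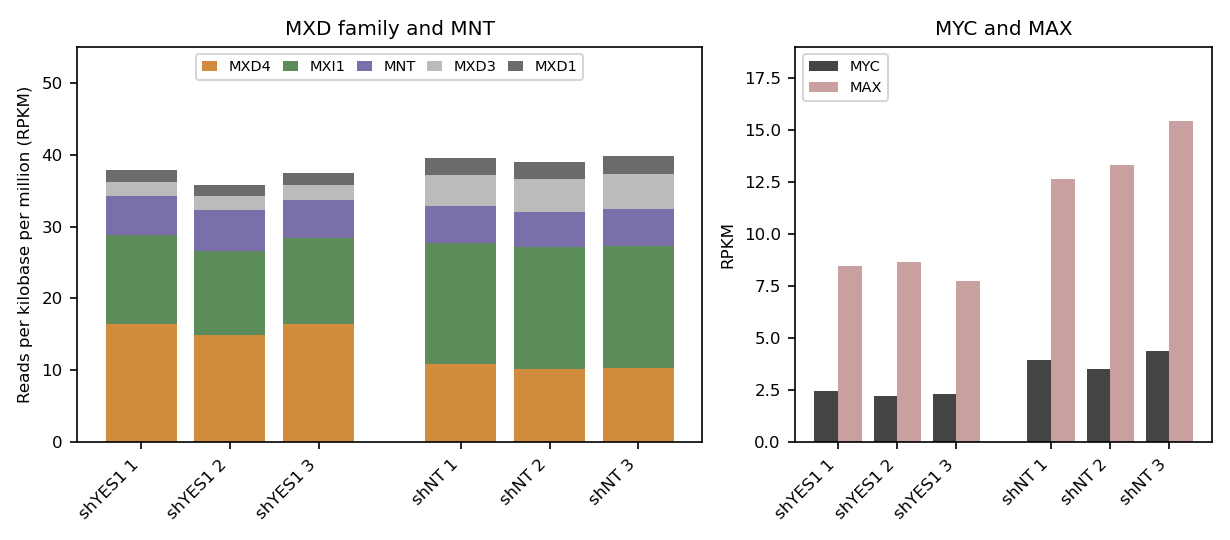
Left, RPKM of MXD4, MXI1, MNT, MXD3 and MXD1 stacked in each library, shYES1 before shNT; right, RPKM of MYC and MAX in the same libraries. The stacks reach 35.8 to 37.8 in shYES1 and 39.0 to 39.8 in shNT, with a larger MXD4 segment and a smaller MXI1 segment in shYES1.

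Genes that MYC and MAX are known to activate were split between rises and falls. Of 57 such genes, mostly of ribosome production, 55 were tested, 18 rose, 15 fell and 22 were not called, with a median log2 fold change of -0.011. The called share of 60.0% was near that of all tested genes. This list and those that follow were chosen with earlier results of these data known. Their called shares were not matched for expression level and are descriptions only. CDK4, the G1 kinase, averaged 36.2 ± 1.62 CPM in shYES1 and 94.2 ± 3.30 CPM in shNT (log2 fold change -1.39, edgeR adjusted p = 5.58e-30). DDX18, a nucleolar helicase, averaged 63.4 ± 2.60 CPM in shYES1 and 156.1 ± 6.98 CPM in shNT, and TMEM97, a sterol-regulated membrane protein, fell by 1.12 on the log2 scale (-1.12). NOP2, a ribosomal RNA methyltransferase, rose (41.3 ± 2.81 CPM in shYES1 and 26.2 ± 1.02 CPM in shNT, log2 fold change 0.64), as did the rRNA processing factor RRP9 and the complex I assembly factor NDUFAF4 (both 0.49).

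The split of this list moved with the scaling of the libraries. With library size only, 26 of its genes rose and 10 fell, and with scaling on CCTTTC-free genes 12 rose and 22 fell. Against a change of 1.2-fold 5 rose and 10 fell. Over all genes, library size only gave 5799 higher and 3762 lower, and the CCTTTC-free scaling gave 3580 higher and 5671 lower. CACGTG was in the promoter window of 24 of 47 tested targets with a window (51.1%, against 12.4% of all tested genes), and the median log2 fold change was -0.027 in those with it and 0.025 in those without.

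Of 12 genes that MYC is known to repress, 10 were tested and all 10 were called, against 65.3% of all tested genes. Of the 10, 6 were higher and 4 lower, with a median log2 fold change of 0.55. CDKN1A, which encodes the CDK inhibitor p21, had 95.3, 102.0 and 97.0 CPM in shYES1, against 34.4, 35.1 and 32.8 CPM in shNT. Its level was 2.87-fold higher in shYES1 (log2 fold change 1.52, SE 0.0449, edgeR adjusted p = 1.75e-31). CDKN1C, which encodes the related inhibitor p57, rose 2.65-fold, and the receptor gene PDGFRB rose 2.51-fold. NDRG1, a stress-responsive gene also induced by hypoxia, fell 3.77-fold, to 144.9 ± 5.89 CPM in shYES1, against 548.1 ± 12.5 CPM in shNT. FTH1, the ferritin heavy chain, fell 2.17-fold and NDRG2 1.24-fold, the last with its call lost under library-size scaling (adjusted p = 0.0613) and against a change of 1.2-fold (adjusted p = 0.289). The list therefore held 3 genes at least 2-fold higher and 2 at least 2-fold lower. Among all tested genes 356 were at least 2-fold higher and 886 at least 2-fold lower.

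Cofactors of both arms moved in mixed directions. Of 17 MYC coactivator genes 7 rose, 4 fell and 6 were not called, a called share of 64.7%, against 65.3% of all tested genes. PAF1, a subunit of the elongation complex of that name, fell 2.48-fold, to 19.7 ± 0.752 CPM in shYES1, against 48.4 ± 2.73 CPM in shNT. ACTL6A, the BAF53A subunit of chromatin remodellers, fell by 0.64 on the log2 scale (-0.64) and the cyclin T1 gene CCNT1 by 0.26 (-0.26). CDK9, the partner of cyclin T1 in P-TEFb, rose (0.51), as did SMARCB1 (0.49) and the acetyltransferase gene EP300 (0.43). Against a change of 1.2-fold the call of CCNT1 was lost (adjusted p = 0.495). Library-size scaling gave 11 higher and 4 lower, and scaling on CCTTTC-free genes 6 higher and 7 lower.

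Of 16 corepressor genes that act with MXD proteins and MNT, 8 rose, 6 fell and 2 were not called. The called share was 87.5%, against 65.3% of all tested genes. SIN3A, the scaffold that binds the MXD proteins directly, averaged 56.5 ± 2.40 CPM in shYES1 and 75.2 ± 1.88 CPM in shNT (log2 fold change -0.41, edgeR adjusted p = 6.53e-12). Its complex partners SAP30 (-0.69) and BRMS1 (-0.38) fell, and ARID4B (0.37), ING1 (0.36) and ARID4A (0.33) rose. The exons of ARID4B share 14.5% of their bases with RBM34 on the same strand, and the call of ARID4A was lost against a change of 1.2-fold (adjusted p = 0.0712). Scaling on CCTTTC-free genes gave 6 higher and 7 lower, and the test against a change of 1.2-fold 3 higher and 4 lower.

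Genes that set the stability of MYC protein were nearly all called (94.7%, against 65.3% of all tested genes). As with the other lists, that share is a description of genes chosen with earlier results known, not matched for expression level. Of 19 tested 8 rose, 10 fell and 1 was not called, with a median log2 fold change of -0.15. FBXW7, the ubiquitin ligase subunit that recognises phosphorylated MYC, averaged 24.9 ± 1.79 CPM in shYES1 and 16.4 ± 0.952 CPM in shNT (log2 fold change 0.62, edgeR adjusted p = 2.39e-10). GSK3B, the kinase that makes that phosphorylated site, rose (0.49), and so did STUB1 (0.40), which encodes the ubiquitin ligase CHIP. CIP2A, which shields MYC from the phosphatase PP2A, averaged 24.3 ± 0.770 CPM in shYES1 and 47.7 ± 2.13 CPM in shNT (log2 fold change -0.98, edgeR adjusted p = 1.21e-20). SKP2, another ligase subunit for MYC, fell (-0.78), and so did the SUMO protease gene SENP1 (-0.64). Against a change of 1.2-fold 6 were higher and 5 lower.

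Of 15 genes that act on MYC transcription or MYC RNA, 14 were tested, 3 rose, 5 fell and 6 were not called. The called share was 57.1%, against 65.3% of all tested genes. FUBP1, which binds a single-stranded element upstream of MYC, fell (-0.41), as did HNRNPD (-0.36), whose product AUF1 binds AU-rich RNA, and IGF2BP1 (-0.21), whose product shields MYC RNA. The related IGF2BP3 (0.40) and IGF2BP2 (0.23) rose, and CNBP, which binds the MYC promoter, rose least (0.084). PVT1, the long noncoding RNA that neighbours MYC, had 2.62, 3.25 and 3.22 CPM in shYES1, against 4.44, 3.56 and 3.42 CPM in shNT, and was not called (-0.32, edgeR adjusted p = 0.0918). Library-size scaling gave 7 higher and 4 lower, and scaling on genes without CCTTTC 2 higher and 7 lower, with CNBP at -0.0060 and PVT1 past the threshold (adjusted p = 0.0314). The call of CNBP was also lost without shYES1 replicate 1 (adjusted p = 0.0572) and without shNT replicate 1 (adjusted p = 0.0854), and that of IGF2BP1 with library-size scaling (adjusted p = 0.116). None of CNBP, IGF2BP1 and IGF2BP2 passed against a change of 1.2-fold.

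Targets of MLX and its glucose-sensing partners were split as well. Of 12 listed, 10 were tested, 5 rose, 4 fell and 1 was not called, and with library-size scaling 6 rose and 3 fell. The called share was 90%, against 65.3% of all tested genes. Over the 10 tested, log2 fold changes ran from -1.31 to 2.08, with 1 gene at least 2-fold lower and 2 at least 2-fold higher. The genes at both ends fall outside the rule for naming genes. TXNIP, which curbs glucose uptake and is the best known target of MLXIP with MLX, had 563.9, 559.1 and 541.0 CPM in shYES1, against 685.8, 720.5 and 680.3 CPM in shNT. It was lower in all shYES1 libraries (log2 fold change -0.33, SE 0.0256, edgeR adjusted p = 1.44e-15). ARRDC4, its close relative, had 7.49, 10.4 and 8.02 CPM in shYES1, against 7.51, 7.64 and 6.46 CPM in shNT and was not called (0.24, edgeR adjusted p = 0.0742), although it passed without shYES1 replicate 1 (adjusted p = 0.0291), with library-size scaling (adjusted p = 0.0123) and with the unstranded column (adjusted p = 0.0468). The lipid synthesis genes FASN (1036 ± 23.7 CPM in shYES1 and 399.2 ± 25.5 CPM in shNT, log2 fold change 1.38), ACACA (0.75) and ACACB (0.53) rose. SCD (-0.15) and KLF10 (-0.14) fell slightly, and neither passed against a change of 1.2-fold; KLF10 was also lost with library-size scaling (adjusted p = 0.274).

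All 13 other E-box factors listed were called, against 65.3% of all tested genes. Of the 13, 7 were higher and 6 lower, with a median log2 fold change of 0.18. TFEB, the lysosome regulator, rose most (23.2 ± 0.390 CPM in shYES1 and 15.1 ± 0.405 CPM in shNT, log2 fold change 0.62), followed by SREBF1 (0.42), the regulator of fatty acid synthesis, and USF2 (0.30), whose call was lost against a change of 1.2-fold (adjusted p = 0.156). BHLHE40, a repressor of the circadian system that is also induced by hypoxia, fell most (101.7 ± 3.88 CPM in shYES1 and 179.3 ± 1.28 CPM in shNT, log2 fold change -0.82). Its paralog BHLHE41 (-0.64) and ARNT (-0.43), the common partner of hypoxia-inducible factors, fell too. Against a change of 1.2-fold 7 of the 13 were called, 2 higher and 5 lower.

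**Figure D4:**
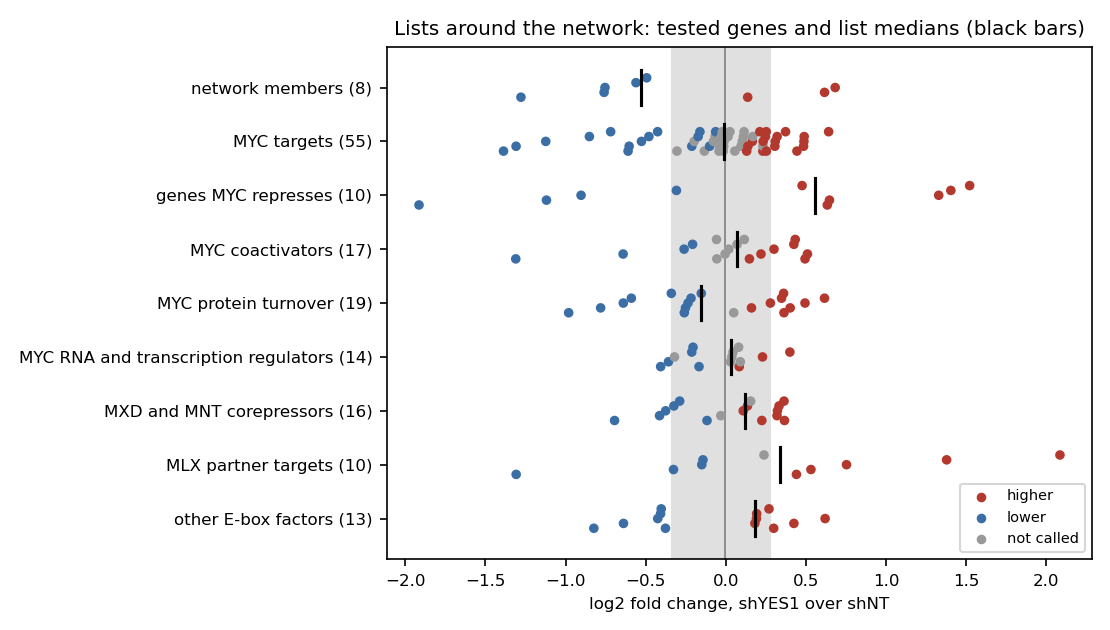
Log2 fold change (shYES1 over shNT) of every tested gene of each list, with red for higher, blue for lower and grey for not called, black bars for list medians and a grey band for the middle 50% of all tested genes. The MYC target list is centred near 0, at -0.011, and the network members at -0.53, while the genes MYC represses spread from -1.91 to 1.52.

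The 3′ UTR sequence CCTTTC was looked for in the longest annotated 3′ UTR of each gene, on the transcript strand. It occurs in 5 of the 8 tested members, MAX, MXD1, MNT, MXD4 and MLX, and in none of the 3′ UTRs of MYC, MXD3 and MXI1. Of all tested genes with a 3′ UTR 45.6% hold it, with a median log2 fold change of -0.082 in those with it and 0.091 in those without. The sequence was taken up after the data had been seen, so these medians only describe them. Genes with and without it were not matched for 3′ UTR length, and no other sequence was set beside it. The part of 3′ UTR length in these medians was not tested. Among the members 2 of the 5 with it fell and 3 rose, and all 3 without it fell.

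The genes whose profile over the 6 libraries was most like that of a member were found by the Euclidean distance between centred log2 CPM profiles, among 10607 genes. The search covered MYC, MAX, MXD4, MXI1 and MNT, and left out MXD1, MXD3 and MLX. Nearest to MYC were CENPW (distance 0.105), AIG1 (0.145) and CIBAR1 (0.145), and nearest to MAX were TTC30A (0.0884), SLC37A4 (0.0943) and TTC8 (0.131). MXD4 was matched by MINDY1 (0.0682), LRP5L (0.0759) and PIK3CA (0.0778). The nearest to MXI1 were LGALS8 (0.0302), FGD5-AS1 (0.0362) and STT3A (0.0392), and to MNT FAM98B (0.0294), RUVBL2 (0.0330) and G6PC3 (0.0358). With 2 groups that differ, the distance reflects mainly a log2 fold change of like size.

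**Figure D5:**
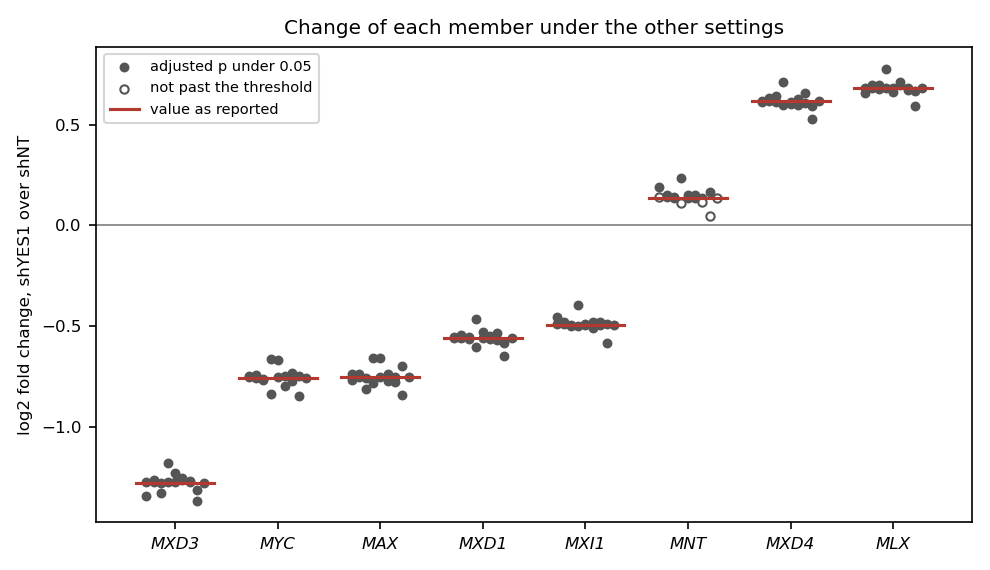
Log2 fold change (shYES1 over shNT) of each tested member under the 17 other settings of processing, with filled points past an adjusted p of 0.05, open points not past it and red lines for the values as reported. Only MNT has open points, and each member keeps its side of 0 in these settings.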

How the data were processed

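RNA was measured by stranded poly(A) sequencing in 6 libraries. Read counts per gene were deposited by the authors without normalization, after CASAVA 1.8.2, Trimmomatic 0.35 and STAR 2.5.1b with build GRCh38, per the submitters' processing notes. The sources used here do not give the annotation release. The reverse-strand column was used, since it held 93.5% to 94.0% of stranded gene reads. The 4 entries that name no gene, with 19.8% to 20.3% of reads, were left out. Symbols were matched for 57392 of 58219 identifiers, and coordinates and exon lengths come from GENCODE release 29. In R 4.3.3, edgeR 4.0.16 (filterByExpr, minimum count 10; TMM; robust quasi-likelihood test; Benjamini-Hochberg over all genes tested, threshold 0.05) compared shYES1 with shNT, and CPM and RPKM were computed from the deposited counts. The SE of a log2 fold change is approximate. Reads are not counted by molecule, so floors cover counting error only. Alternatives were other scalings, DESeq2 1.42.0, limma-voom (limma 3.58.1), other filters, a replicate block, the unstranded column, a test against 1.2-fold and leaving out each library. The sequence CCTTTC and the scaling on genes without it were taken up after the data had been seen. That scaling did not take 3′ UTR length into account. The members and lists were chosen with earlier results of these data known. From each list, up to 3 rises and 3 falls are named, the largest among called genes that average 5 CPM or more and whose groups do not overlap, with TXNIP, ARRDC4, PVT1, MGA, MLXIP and MLXIPL as values whatever they did. The edgeR and DESeq2 steps were tested on simulated data. There edgeR recovered 53.1% of changes of 0.25 on the log2 scale and 100% of changes of 2, and 2.53% of its calls were false. Few genes were changed in the simulation, so it does not test the scaling of libraries in which most genes are called.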

Additional observations from a re-analysis of the deposited data

Results flagged for a closer look

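The forward-strand column, which no comparison above uses, held reads at 2 members above the level in the shNT libraries. At MXD3 the forward-strand reads averaged 72.3 CPM in shYES1 and 65.4 CPM in shNT, with every shYES1 library above every shNT library. These exceed the gene's own reverse-strand level, and exons of PRELID1 lie on that strand over 1158 of its exon bases. At MXD4 the forward-strand reads averaged 2.78 CPM in shYES1 and 1.64 CPM in shNT, again without overlap, beside 112.5 CPM in shYES1 and 73.9 CPM in shNT on its own strand. At MLX the forward-strand reads went the other way, with 4.44, 4.02 and 3.88 CPM in shYES1, against 6.38, 6.58 and 5.51 CPM in shNT. Exons of PSMC3IP lie on that strand over 770 exon bases of MLX. Groups of 3 libraries were not tested for single outlying libraries.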

How the results depend on the processing

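In 17 other settings 7 of the 8 tested members kept direction and call, and MNT lost its call in the 5 settings given with its values. The check covered 61 of the genes named, and left out untested genes, cell markers and the genes found by profile likeness. Of the 61, 48 kept call and direction in all settings. A call was lost in at least 1 setting by 10 (MNT, ARID4A, CCNT1, CNBP, IGF2BP1, IGF2BP2, KLF10, NDRG2, SCD and USF2), and MGA, ARRDC4 and PVT1 gained one. Against a change of 1.2-fold, 5185 of all genes were called, in place of 9299, with 15 MYC targets in place of 33 and 51 genes of the other lists in place of 84, since that test asks for a larger change. DESeq2 called 7953. Scaling on CCTTTC-free genes, chosen after seeing the data, turned MGA (-0.052) and CNBP (-0.0060), and MGA also turned without shYES1 replicate 3, at -0.0139 against up to 0.0853 without any other 1 library; the cause was not tested. Without any 1 library 8751 to 9078 genes were called, with 7 to 8 members, 31 to 32 MYC targets and 81 to 85 genes of the other lists. Whether the numbers 1 to 3 pair the samples is not given. Deviations of same-numbered samples correlated at 0.0116, 0.0252 and 0.0122, so no shared deviation was visible, which cannot show that the samples were unpaired. With the replicate block 9297 genes, 8 members, 31 MYC targets and 85 other list genes were called, ARRDC4 among them (edgeR adjusted p = 0.0457). Depth limits MYCN, MYCL and MLXIPL.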
